A study of Mus musculus with 44 samples.

Results

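The genes described here are 7 components of the scavenger receptor system of visceral endoderm, Cubn, Amn, Lrp2, Folr1, Lrpap1, Dab2 and Clcn5, followed by name through every library of a lineage-tracing study of the mouse gut (7 of 32287 genes quantified). Each symbol had a single Ensembl identifier. In that study mCherry+ morulae were aggregated with GFP+ embryonic stem cells, so that extraembryonic descendants carried mCherry and embryonic descendants carried GFP. RNA was sequenced from 44 low-input libraries in 12 groups.

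At E6.5, whole tissues of single embryos gave the epiblast (Epi), distal embryonic visceral endoderm (exEndo1) and proximal extraembryonic visceral endoderm (exEndo2). At E9.5, small pools of EPCAM+ cells, sorted from tissue pooled over embryos, gave mCherry+ midgut and hindgut cells (exMidgut, exHindgut), GFP+ cells carrying little mCherry from the same regions (emMidgut, emHindgut) and mCherry+ yolk sac endoderm (YsEndo). These 8 groups have 4 libraries each. The study describes the emMidgut and emHindgut cells as having taken up remnants of dying mCherry+ cells. It states that such cells can hold some extraembryonic transcripts. The part of this uptake in the E9.5 comparisons of origin was not tested. At E13.5, sorted EPCAM+ cells from single embryos gave mCherry+ small intestine and colon cells (exSI, exColon) and their GFP+ counterparts (emSI, emColon), with 3 libraries each. All E6.5 and E9.5 libraries were wild type. The E13.5 extraembryonic cells were Trp53 knockout and the embryonic cells wild type, so origin and genotype cannot be told apart at that stage. GFP+ cells all came from a single male stem cell clone, whereas mCherry+ cells could be of either sex. Below, exGut and emGut stand for midgut and hindgut libraries together (n = 8 each).

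Visceral endoderm lies between maternal nutrient supply and the embryo before a placental circulation exists, and absorbs protein, vitamins and lipid by clathrin-mediated endocytosis. Cubilin (Cubn) has no membrane anchor of its own and reaches the cell surface bound to amnionless (Amn), the pair taking up intrinsic factor with vitamin B12, apolipoprotein A-I, transferrin and albumin. Megalin (Lrp2) is a giant membrane receptor for many ligands, Folr1 binds folate, Lrpap1 is the chaperone that keeps ligands off megalin during folding, Dab2 links the receptor tails to clathrin, and Clcn5 is a chloride-proton exchanger of endosomes. The same set is known from the proximal tubule of the kidney, and cubilin and amnionless also act in the ileum.

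The genes lie on 6 chromosomes (mm10). Cubn spans chr2:13276338-13491813 and Lrp2 chr2:69424340-69586065, both on the minus strand. Amn is the shortest, at chr12:111271095-111276426 on the plus strand, with 1843 exon bases against 14935 for Cubn and 16701 for Lrp2. Lrpap1 lies at chr5:35091501-35105766 (minus), Dab2 at chr15:6299788-6440712 (plus), Folr1 at chr7:101858331-101870788 (minus) and Clcn5 at chrX:7153810-7319358 (minus). Exons of Cubn overlap 368 bases of Gm13270 on the other strand, and exons of Dab2 overlap 211 bases of Gm18888. The library kit does not mark strand, so reads from those bases cannot be assigned to either gene.

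Promoter windows were found for 6 of the 7 genes. The 250 bases upstream of the RefSeq start are shown for Amn and Cubn because both proteins work as a complex while their transcripts parted in several groups below (GRCm38.p6, 5′ to 3′ on the gene's strand, capitals marking CpG dinucleotides). The Amn window is chr12:111270846-111271095 (plus strand) and the Cubn window chr2:13491877-13492126 (minus strand).
Amn: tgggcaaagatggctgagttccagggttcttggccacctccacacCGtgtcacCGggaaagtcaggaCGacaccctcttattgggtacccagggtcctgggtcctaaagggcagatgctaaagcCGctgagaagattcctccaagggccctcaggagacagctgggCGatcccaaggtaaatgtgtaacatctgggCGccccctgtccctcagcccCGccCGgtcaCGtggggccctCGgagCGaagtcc
Cubn: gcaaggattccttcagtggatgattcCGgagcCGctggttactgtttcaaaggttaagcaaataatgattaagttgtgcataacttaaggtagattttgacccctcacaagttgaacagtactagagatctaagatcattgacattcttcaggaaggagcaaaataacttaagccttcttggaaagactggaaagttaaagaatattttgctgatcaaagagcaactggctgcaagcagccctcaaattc
The Amn window holds 11 CpG dinucleotides and the Cubn window 2, against a median of 6 over 32851 mouse promoter windows of that length. As many or fewer were found in 66.5% of windows for Amn and in 29.0% for Cubn. Lrp2 had 18 and Lrpap1 had 14. Dab2 and Clcn5 each had a CpG-poor and a CpG-richer start, with 2 and 17 for Dab2 and 3 and 11 for Clcn5. The GATA motif AGATAA, searched on both strands, was in none of these 8 windows and in 9.99% of all. The HNF1 half-site GTTAAT was in 1, the second Dab2 start, and in 6.43% of all. The HNF4 half-site CAAAGT was in 3, those of Lrp2, the first Dab2 start and the first Clcn5 start, and in 12.6% of all.

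Library depth was similar in kind across groups, with 2.88 to 9.90 Gb of exon sequence per library (deposited coverage multiplied by exon length) and 10382 to 13596 genes above 1 TPM. TPM, a share of all transcripts corrected for transcript length, is used for all levels. The reporter mCherry stood at 1731 to 8667 TPM in every extraembryonic library and at most 6.61 TPM in every embryonic one, and Pou5f1, the epiblast factor, averaged 1609 TPM in Epi against 12.7 in exEndo1 and 1.36 in exEndo2. Other epiblast markers were present in exEndo1, where Fgf5 stood at 32.4 to 155 TPM and overlapped Epi (97.9 to 150 TPM), against at most 2.12 TPM in exEndo2. The extraction text given for the Epi libraries names visceral endoderm, but Ttr and Apoc2 were listed at 0 in all 4. Macrophage markers summed to 10.3 to 25.9 TPM in exMidgut and up to 24.4 in emMidgut, and to at most 4.30 TPM elsewhere. Of these 6 markers, 2 averaged above 1 TPM in each midgut group. In all libraries of the group, 4 were listed at 0 in exMidgut and 3 in emMidgut. Blood markers summed to 3.49 to 7.10 TPM in YsEndo and 11 TPM in a single exColon library, and to at most 2.22 TPM in the others. Endothelial markers summed to at most 4.89 TPM.

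The first comparison asked how the 7 genes stood in visceral endoderm against the epiblast of the same stage. All 7 were higher in both visceral endoderm regions, where 19.8% of the 12057 genes tested were called higher in exEndo1 and 20.4% of 12046 in exEndo2. A gene was called when the limma adjusted p was under 0.05 and the fold change of TPM + 1 above 2 in either direction, which is a log2 fold change beyond 1. The median log2 fold change of the 7 was 7.48 in exEndo1 and 7.30 in exEndo2, against 0.09 and 0.05 over all genes tested. In visceral endoderm the 7 genes took 0.372 to 0.552% of all transcripts per library, and in the epiblast 0.00655 to 0.00717%.

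**Figure D1:**
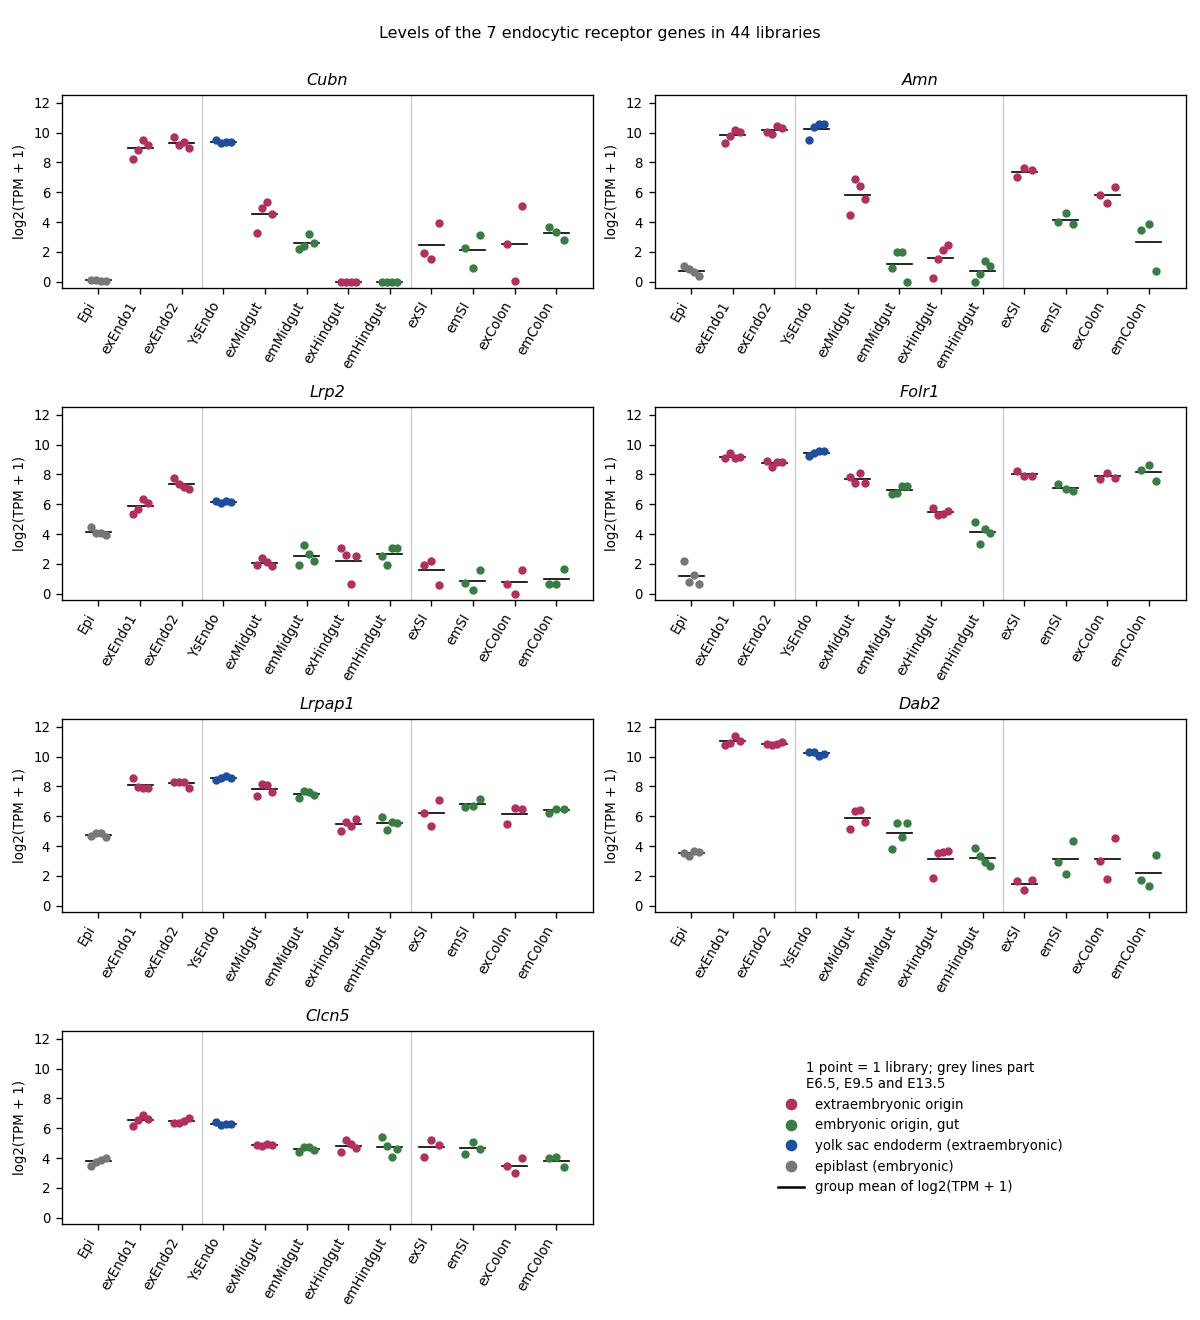
Level of each gene as log2(TPM + 1) (vertical axis) in every library of the 12 groups (horizontal axis), with 1 point per library and a bar for the group mean; grey lines part E6.5, E9.5 and E13.5. All 7 genes are highest in exEndo1, exEndo2 and YsEndo, while Cubn is at or near 0 in both hindgut groups and Folr1 stays above 9 TPM in every gut library.

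Cubn was almost silent in the epiblast, at 0.0772, 0.0901, 0.0460 and 0.0585 TPM, and stood at 299, 463, 739 and 573 TPM in exEndo1. In exEndo2 it was 844, 564, 673 and 491 TPM. No epiblast library came near a visceral endoderm library, and the 2 endoderm regions overlapped. The log2 fold change over Epi was 8.85 ± 0.24 (SE) in exEndo1 and 9.21 ± 0.17 in exEndo2 (limma, adjusted p = 2.42e-10 and 3.89e-12).

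Amn, the membrane anchor of cubilin, followed the same course. It was at 1.10, 0.796, 0.575 and 0.332 TPM in Epi, 615, 880, 1150 and 1062 TPM in exEndo1, and 1067, 936, 1377 and 1253 TPM in exEndo2. Again the epiblast stood apart and the endoderm regions overlapped. Log2 fold changes were 9.07 ± 0.21 in exEndo1 and 9.42 ± 0.17 in exEndo2 (limma adjusted p = 7.84e-11 and 3.89e-12).

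Dab2, the clathrin adaptor, had the highest TPM of the set in visceral endoderm, averaging 2129 ± 373 TPM (SD, n = 4) in exEndo1 and 1862 ± 122 in exEndo2, against 10.9 ± 1.18 in Epi. That place rests on TPM alone, since the deposited coverage of Dab2 in exEndo1 was 523 to 749 reads per base, below the 2498 to 4152 of Amn and the 946 to 2067 of Cubn. The cause of this mismatch was not tested, and it leaves the level of Dab2 relative to the other genes uncertain. Folr1 averaged 584 ± 67.7 TPM in exEndo1 and 436 ± 49.8 in exEndo2, against 1.54 ± 1.36 in Epi. Their log2 fold changes in exEndo1 were 7.48 ± 0.14 for Dab2 and 7.98 ± 0.29 for Folr1 (limma adjusted p = 1.85e-11 and 2.24e-09).

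Lrp2, Lrpap1 and Clcn5 differed less between epiblast and visceral endoderm. All 3 were detected in the epiblast, as was Dab2 at 10.9 TPM. Lrpap1 averaged 25.9 ± 2.46 TPM in Epi and 278 ± 69.2 in exEndo1, a log2 fold change of 3.35 ± 0.16 (limma adjusted p = 2.16e-08). Clcn5 averaged 13.0 ± 2.29 and 93.4 ± 19.1 TPM, a log2 fold change of 2.75 ± 0.18 (limma adjusted p = 2.40e-07).

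Megalin was the exception within visceral endoderm. Lrp2 was at 20.9, 16.1, 15.7 and 14.7 TPM in Epi, 39.7, 49.1, 81.5 and 66.9 TPM in exEndo1, and 219, 160, 143 and 128 TPM in exEndo2. The 3 groups did not overlap, and every proximal library lay above every distal one. Lrp2 was lower in exEndo1 than in exEndo2 by a log2 fold change of -1.46 ± 0.22 (limma adjusted p = 0.00151), and was the only 1 of the 7 called in this comparison, in which 6.41% of 11414 genes were called. Folr1 leaned the other way without reaching the fold threshold, at a log2 fold change of 0.42 ± 0.12 (limma adjusted p = 0.0332). The 95% intervals of the other 5 lay between -0.90 and 0.45 on the log2 scale. Of other endocytic receptors, Lrp1 was higher distally (log2 fold change 1.86 ± 0.20, limma adjusted p = 0.000160), and the proton-coupled folate transporter Slc46a1 was lower (-1.19 ± 0.20, adjusted p = 0.00230). Distal libraries also carried more Afp, at 1397 to 2569 TPM against 30.2 to 192 TPM, and parietal endoderm markers summed to 404 to 797 TPM distally and 1110 to 1706 TPM proximally. The part of these in the Lrp2 difference was not tested.

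The machinery around the receptors was followed through gene lists, to be read against the 19.8% of all genes called higher and 13.6% called lower in exEndo1. All 10 genes for vesicle acidification were higher in exEndo1 than in Epi, with a median log2 fold change of 1.53, among them the proton pump subunit Atp6v0a1 (90.4 ± 13.2 against 12 ± 2.48 TPM) and Atp6ap2 (207 ± 33.0 against 37.8 ± 12.6 TPM). Of 22 genes for clathrin adaptors and trafficking, 10 were higher and 1 lower, led by the retrograde myosin Myo6 (log2 fold change 6.19 ± 0.15) and the early endosome tether Eea1 (3.45 ± 0.28), while Hip1 was lower (-2.59 ± 0.24). Other endocytic receptors split, with 5 of 12 higher, including the neonatal Fc receptor gene Fcgrt, and 4 lower, including Tfrc (12.4 ± 4.02 against 63.2 ± 13.9 TPM). All 7 testable ligand genes were higher. Apoa1, whose protein binds cubilin, averaged 5196 ± 1171 TPM in exEndo1 and 0.815 ± 0.574 in Epi, and Ttr, which carries thyroid hormone and binds retinol-binding protein, was listed at 0 in all Epi libraries and at 1997 to 2822 TPM in exEndo1. Of 7 genes for vitamin B12 and folate handling, 2 were higher, the lysosomal cobalamin exporters Abcd4 (log2 fold change 1.92 ± 0.13) and Lmbrd1 (1.07 ± 0.20).

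Yolk sac endoderm continues the visceral endoderm outside the embryo. YsEndo held Cubn at 711, 638, 661 and 669 TPM and Amn at 708, 1338, 1551 and 1521 TPM. Amn and Cubn both overlapped their exEndo2 ranges, with log2 differences of 0.09 ± 0.21 and 0.09 ± 0.14 between YsEndo and exEndo2 (95% intervals -0.37 to 0.56 and -0.21 to 0.39). Across the comparison, 29.6% of 11205 genes were called and the median log2 fold change of all genes was -0.41, and of the 7 only Lrp2 and Dab2 (-0.66 ± 0.09, every YsEndo library below every exEndo2 library) lay below that median. Lrp2 was the only gene of the set called, at 74.6, 66.1, 74.2 and 70.2 TPM against 128 to 219 TPM, a log2 fold change of -1.15 ± 0.15 (limma adjusted p = 2.19e-05). After median-ratio rescaling it was -0.74 and no longer past the fold threshold, and without exEndo2 replicate 1 it was -0.996 and likewise under the threshold. Under the same rescaling Folr1 passed it, at a log2 fold change of 1.10. The ligand genes Trf and Rbp4 rose by log2 fold changes of 5.84 ± 0.23 and 4.44 ± 0.27 in YsEndo over exEndo2.

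The gut descendants of visceral endoderm held far less of the set. All 7 genes were lower in exGut than in YsEndo, where 10% of 12801 genes were called lower, and all 7 were lower in emGut than in YsEndo, where 10.9% of 13029 were. Their median log2 fold change was -4.01 in exGut. Over all genes tested the median was 0.59 in the same comparison and 0.08 after median-ratio rescaling. The lower level of the 7 therefore went against the general shift. Cubn was lower by 7.13 ± 1.07 on the log2 scale and Amn by 6.54 ± 1.07 in exGut (limma adjusted p = 5.07e-05 and 0.000106). Cubn was listed at 0 in 4 of the 8 exGut libraries, so the size of its difference depends on the pseudocount. In exMidgut alone Cubn stood at 3.73% of the YsEndo mean, Lrp2 at 4.64%, Dab2 at 5.18% and Amn at 5.26%. Over exGut, Dab2 was lower than in YsEndo by 5.69 ± 0.69, Lrp2 by 4.01 ± 0.35 and Folr1 by 2.88 ± 0.53. Lrpap1 and Clcn5 differed least, by 1.94 ± 0.57 and 1.47 ± 0.15. Fewer cells with a transcript and less transcript per cell cannot be told apart in these pooled libraries.

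Against exEndo1 of E6.5, exGut cells were also lower for all 7 genes (11.5% of 12931 genes were called lower), from -6.69 ± 1.08 for Cubn to -1.46 ± 0.57 for Lrpap1 on the log2 scale. The call for Lrpap1 (limma adjusted p = 0.0460) was lost when any exEndo1 or any exHindgut library was left out (adjusted p up to 0.119). The change from E6.5 to E9.5 differed between the yolk sac line (exEndo2 to YsEndo) and the gut line (exEndo1 to exGut) for all 7, with interaction terms from 6.77 ± 1.37 for Cubn to 1.53 ± 0.21 for Clcn5 on the log2 scale (limma). The sizes for Cubn depend on the pseudocount, since it was listed at 0 in the exHindgut libraries. Interaction terms were called on the adjusted p alone, and 11.4% of 13341 genes passed in that direction. Stage, dissection and sorting differ between the E6.5 and E9.5 groups and cannot be told apart. The median interaction of all genes was -0.53, and -0.07 after rescaling.

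In embryonic gut cells 2 of the genes were higher than in the epiblast. Folr1 rose from 1.54 ± 1.36 TPM in Epi to 72.3 ± 60.9 in emGut (n = 8), a log2 fold change of 4.35 ± 0.71, and Lrpap1 from 25.9 ± 2.46 to 114 ± 74.6 TPM, 1.77 ± 0.47 (limma adjusted p = 0.000164 and 0.00629; 22.4% of 13053 genes were called higher). Lrp2 fell by 1.57 ± 0.29 (7.31% of genes were called lower). Clcn5 (0.87 ± 0.22, adjusted p = 0.00428) missed the fold threshold. Amn, with a log2 difference of 0.24 ± 0.41, was not distinguishable from the epiblast.

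Position along the gut separated the set in both lineages. Between exHindgut and exMidgut, 5 of the 7 were lower in the hindgut (6.78% of 12331 genes were called lower), and between emHindgut and emMidgut 4 of the 7 (8.61% of 12490). Cubn was listed at 0 in all 4 exHindgut libraries and in 3 emHindgut libraries, the fourth standing at 0.00448 TPM. In the midgut it was 8.58, 29.8, 39.6 and 22.0 TPM in exMidgut and 3.48, 4.22, 8.17 and 4.95 TPM in emMidgut. Housekeeping genes were never at 0, the lowest value among 10 being 5.00 TPM for Tbp. With the exHindgut at 0, no fold is given for Cubn there.

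Lrpap1 stood at 166 to 285 TPM in exMidgut and 31.9 to 55.7 TPM in exHindgut, a log2 fold change of -2.37 ± 0.21, and at 147 to 206 and 32.0 to 59.6 TPM in the embryonic counterparts, -1.97 ± 0.18. Folr1 went from 170 to 275 TPM down to 37.9 to 52.0 TPM in extraembryonic cells (-2.22 ± 0.18) and from 101 to 151 TPM down to 9.18 to 27.1 TPM in embryonic cells (-2.84 ± 0.26). Dab2 fell by 2.71 ± 0.41 in extraembryonic and by 1.68 ± 0.39 in embryonic hindgut. Amn was called in extraembryonic cells (-4.26 ± 0.54, limma adjusted p = 0.000103), while its embryonic difference of -0.47 ± 0.53 was not called. Lrp2 and Clcn5 showed no regional call, with 95% intervals from -0.96 to 1.23 for Lrp2 and from -0.55 to 0.66 for Clcn5. Myo6 was lower in both hindgut groups (log2 fold change -2.79 ± 0.39 in exHindgut and -2.98 ± 0.29 in emHindgut), and all 7 testable ligand genes were lower in exHindgut.

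The central comparison of the study set extraembryonic against embryonic gut cells. With both regions pooled and no term for region or pairing, none of the 7 was called between exGut and emGut by limma, while 2.35% of 13473 genes were. Amn came closest, with a log2 fold change of 2.73 ± 0.81 and an adjusted p of 0.0759 (0.0170 without exHindgut replicate 1 and 0.0484 without exHindgut replicate 2), and Folr1 had 1.03 ± 0.62 and 0.436. With the gut region as a covariate, a fit to which the 2.35% does not apply, Amn and Folr1 were called. Their adjusted p was 0.00318 and 0.000564 (limma). The share of all genes called in that fit is not given here, so these 2 calls cannot be read against it. Values of each region are given below. Genes of the epiblast that primordial germ cells also express were uneven between the midgut groups, Pou5f1 being at 0 to 131 TPM in emMidgut and at most 1.66 TPM in exMidgut, and Nanog at 0 to 15.8 and at most 0.181 TPM. Over the 6 epiblast markers the sums were 24.8 to 181 TPM in emMidgut and 27.4 to 45.8 TPM in exMidgut, and their part in the midgut comparison was not tested.

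In the midgut, 2 of the 7 were higher in extraembryonic cells (1.23% of 12432 genes were called higher). Amn was at 21.4, 116, 85.4 and 46.7 TPM in exMidgut and 0.855, 2.98, 3.01 and 0 TPM in emMidgut. The lowest exMidgut library exceeded the highest emMidgut library several times over. The log2 fold change was 4.62 ± 0.54 (limma adjusted p = 0.000175), and it stayed called without each library in turn. Cubn, with the values given above, did not overlap either, and its log2 fold change was 1.94 ± 0.43 (adjusted p = 0.0224). That call was lost on leaving out any single library other than exMidgut replicate 1 or emMidgut replicate 3 (adjusted p 0.00226 to 0.0740 over all 8) and without the filter on low values (0.116).

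Folr1 was at 224, 171, 275 and 170 TPM in exMidgut and 101, 109, 146 and 151 TPM in emMidgut. The groups did not overlap, but the log2 fold change of 0.71 ± 0.18 was under the threshold (limma adjusted p = 0.0456). Dab2 stood at 33.8, 81.3, 82.8 and 47.0 TPM in exMidgut and 13.0, 46.4, 23.4 and 46.8 TPM in emMidgut, which overlapped (log2 fold change 0.97 ± 0.38, adjusted p = 0.205). For Lrp2, Lrpap1 and Clcn5 the 95% intervals were -1.32 to 0.49, -0.06 to 0.70 and -0.20 to 0.72 on the log2 scale.

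**Figure D2:**
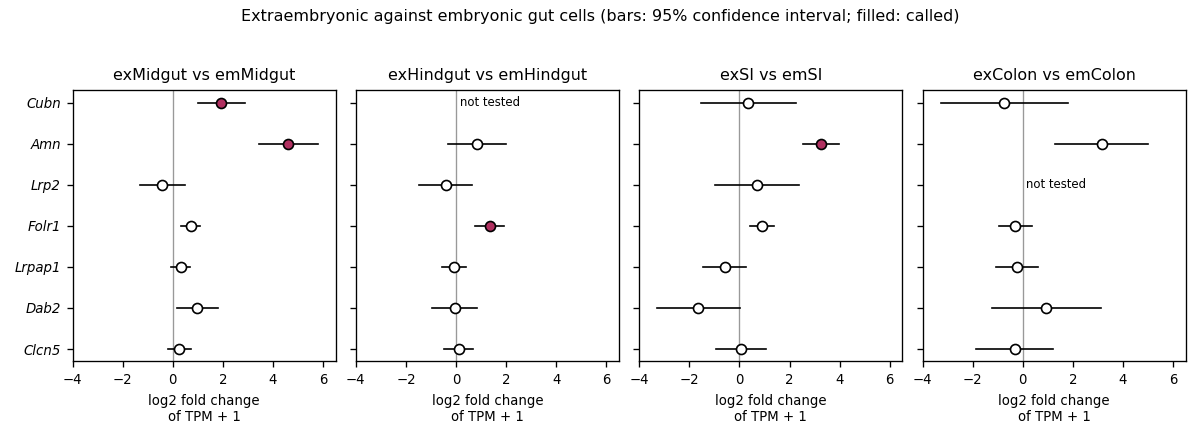
Log2 fold change of TPM + 1 (horizontal axis) of extraembryonic over embryonic cells for the 7 genes (rows) in midgut, hindgut, small intestine and colon, with 95% confidence intervals and filled points for called differences. Amn is called in midgut and small intestine, Cubn in midgut and Folr1 in hindgut.

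The hindgut gave a different single call. Folr1 was at 52.0, 37.9, 39.6 and 45.8 TPM in exHindgut and 27.1, 9.18, 18.8 and 15.8 TPM in emHindgut, with every extraembryonic library above every embryonic one. The log2 fold change was 1.34 ± 0.27 (limma adjusted p = 0.00992; 1.37% of 12318 genes were called higher), and without the filter on low values the adjusted p was 0.0714. Amn was low in both, at 0.167, 1.94, 3.35 and 4.43 TPM in exHindgut and 0, 0.434, 1.67 and 1.10 TPM in emHindgut, and the groups overlapped. For the difference of the origin effect between hindgut and midgut, Amn had an interaction of -3.79 ± 0.81 and an adjusted p of 0.0838 (limma, 0.0965% of 13473 genes passed). Without exMidgut replicate 1 that adjusted p was 0.0308, and it was also under the threshold with FPKM, with the replicate block and in the single fit of all 44 libraries.

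Within exMidgut, replicate 1 was the lowest of the 4 libraries for Amn, Cubn, Lrpap1 and Dab2, and also for Afp, Ttr, Rbp4 and Apoa1, which ran from 440 to 2410 TPM. Folr1, Lrp2, Clcn5 and Apoc2 did not follow that order. In emMidgut, too, replicate 1 was the lowest for all of the 7 but Amn, and for Afp, Ttr, Rbp4 and Apoa1. Markers of visceral and yolk sac endoderm summed to 8484 to 18646 TPM in exMidgut and 1473 to 3205 TPM in emMidgut. Relative to the YsEndo mean, Amn in exMidgut stood at 5.26% and Cubn at 3.73%. Most visceral endoderm markers stood higher, with Afp at 26.5%, Rbp4 at 24.6%, Ttr at 11.8%, Apob at 11.4% and Apoa1 at 8.12%. Apoc2 stood far lower, at 0.0583% (3.54 against 6075 TPM). Folr1 stood at 29.7%, Clcn5 at 36.1% and Lrpap1 at 60.6% of the YsEndo mean. In emMidgut mCherry averaged 1.32 TPM, against 7296 TPM in exMidgut.

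**Figure D3:**
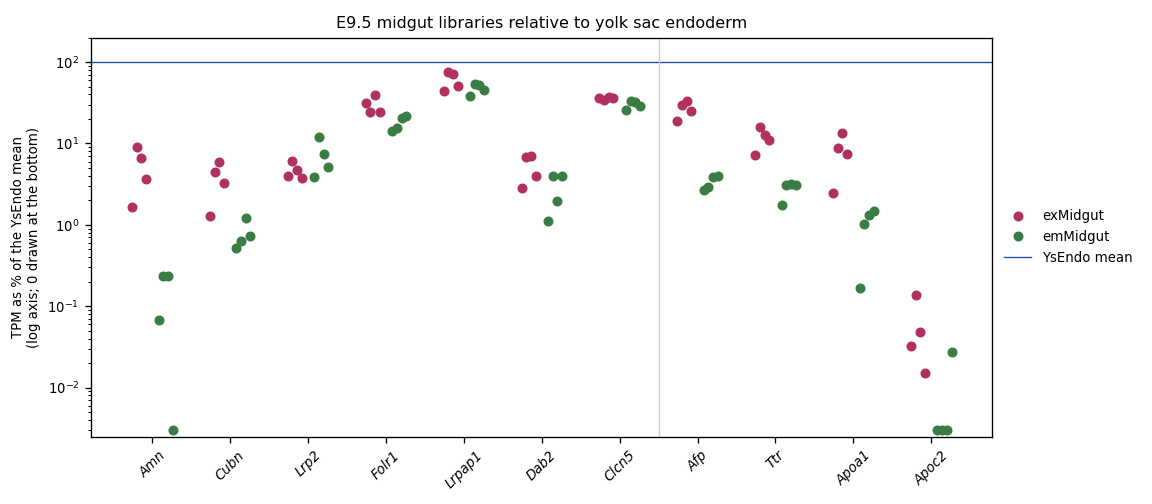
TPM of each exMidgut and emMidgut library as a percentage of the YsEndo mean (log axis, values of 0 drawn at the bottom) for the 7 genes and, right of the grey line, 4 other visceral endoderm genes. Amn and Cubn in exMidgut stand at 5.26% and 3.73% on average, below Afp at 26.5%, Ttr at 11.8% and Apoa1 at 8.12% and above Apoc2 at 0.0583%.

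Around the receptors, no gene of the clathrin, acidification, or B12 and folate lists was called between exMidgut and emMidgut (22, 10 and 7 tested), and their medians of 0.09, 0.05 and 0.03 lay close to the -0.04 of all genes. Of the other receptors Fcgrt was higher in exMidgut, at 44.3 ± 14.5 against 15.4 ± 4.41 TPM. Ligand genes moved more, with 5 of 7 called higher, among them Apoa1 at 1440 ± 811 against 177 ± 103 TPM and Ttr at 1005 ± 315 against 235 ± 58.5 TPM. Over both regions Lrp8, a receptor for apolipoprotein E and reelin, was lower in exGut (log2 fold change -1.38 ± 0.35, limma adjusted p = 0.0345).

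At E13.5, Amn was again higher in extraembryonic cells. It was at 131, 199 and 175 TPM in exSI and 14.8, 23.1 and 13.3 TPM in emSI, and at 54.8, 38.5 and 80.2 TPM in exColon and 9.96, 13.6 and 0.616 TPM in emColon. Within each organ all extraembryonic libraries were above all embryonic ones. In a fit of the 2 organs together, adjusted for organ, the log2 fold change was 3.20 ± 0.45 (limma adjusted p = 0.000691), and Amn was the only 1 of the 7 called, where 0.481% of 12483 genes were called higher. In the small intestine it was 3.25 ± 0.33 (adjusted p = 0.000482; 0.51% of 11376 genes), although without the filter on low values the adjusted p was 0.0589. In the colon it was 3.14 ± 0.84 and not called (adjusted p = 0.240; 0.233% of 11167 genes were called higher). The organs did not differ detectably in this effect (interaction 0.10 ± 0.92, 95% interval -1.86 to 2.07; 0.016% of 12483 genes passed). The fit of the 2 organs treated all its libraries as independent. The study sorted these cells from organs of single embryos, so some libraries may share an embryo. The labels give only a replicate number, and with a block for that number in each organ Amn stayed called. Markers of visceral and yolk sac endoderm summed to 6074 to 9657 TPM in exSI and 1674 to 2227 TPM in emSI. Amn in exSI stood at 13.2% of its YsEndo level, against 25.0% for Rbp4, 9.69% for Apoa1, 9.06% for Apob, 5.88% for Ttr and 0.683% for Apoc2. Afp also stood at a smaller share than Amn, at 832, 345 and 512 TPM in exSI against 23871 to 27040 TPM in YsEndo.

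Cubn did not follow Amn at E13.5. It was at 2.75, 1.90 and 14.3 TPM in exSI, 3.86, 0.859 and 7.80 TPM in emSI, 4.76, 0.0339 and 32.7 TPM in exColon and 12, 9.08 and 5.97 TPM in emColon. The exColon libraries alone spanned most of the range of all 12. The 95% interval of the log2 difference over both organs, -1.79 to 1.42, was wide, so a moderate difference was not detectable. Folr1 in the small intestine was higher in each exSI library (292, 234 and 239 TPM) than in any emSI library (165, 131 and 115 TPM), without being called (0.90 ± 0.22, limma adjusted p = 0.118). Dab2 was at 2.14, 1.09 and 2.26 TPM in exSI and 6.49, 3.29 and 19.4 TPM in emSI, again without a call (-1.64 ± 0.76, adjusted p = 0.488). Lrp2 was too low to be fitted between exColon and emColon, and the exact two-sided permutation p was 0.60, where 0.10 is the smallest the design allows. Of the ligand genes Apoe was higher in exSI, at 504 ± 48.4 against 69.8 ± 29.9 TPM. Mesenchyme markers summed to 1.75 to 410 TPM in emSI and at most 9.24 TPM in exSI, and their part in these values was not tested.

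No gene of the set was called between small intestine and colon in either lineage (emSI against emColon, 0.472% of 11239 genes called; exSI against exColon, 0.693% of 11405). Amn between exSI and exColon, at a log2 fold change of 1.57 ± 0.34, came closest (limma adjusted p = 0.0650, 0.0461 after median-ratio rescaling and 0.0452 without exColon replicate 3). Folr1 was lower in emSI than in emColon in every library (310, 397 and 186 TPM in emColon), but not called (-1.06 ± 0.29, adjusted p = 0.210).

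Part of the set was higher at E13.5 than at E9.5 in embryonic gut cells. The E9.5 cells carried little mCherry and came from pooled embryos, while the E13.5 cells were sorted as GFP+ from single embryos. Stage, sort and pooling cannot be told apart here. Between emHindgut and emColon, Folr1 rose from 17.7 ± 7.43 to 298 ± 106 TPM (log2 fold change 4.02 ± 0.38) and Cubn from the values at or near 0 given above to 9.02 ± 3.02 TPM, with limma adjusted p of 0.000188 and 0.000616, where 20.7% of 12366 genes were called in either direction and the median of all genes was -0.54. Mesenchyme markers summed to 28.6 to 44.7 TPM in emHindgut and 307 to 419 TPM in emColon. Most of the emColon sum was Postn, at 295, 336 and 419 TPM. Of the 6 markers, 2 averaged above 1 TPM in emColon and 5 in emHindgut. The part of these markers in the rises was not tested. Between emMidgut and emSI, Amn rose from 1.71 ± 1.52 to 17.1 ± 5.28 TPM (2.91 ± 0.58, adjusted p = 0.00502; 16.8% of 12531 genes were called in either direction). Lrp2 was lower at E13.5 in both organs and Dab2 in the small intestine, with limma adjusted p from 0.0409 to 0.0473, and each of these 3 calls was lost with a pseudocount of 0.1, without the filter, after rescaling and with FPKM (adjusted p up to 0.141), and when most single libraries were left out (up to 0.134).

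**Figure D4:**
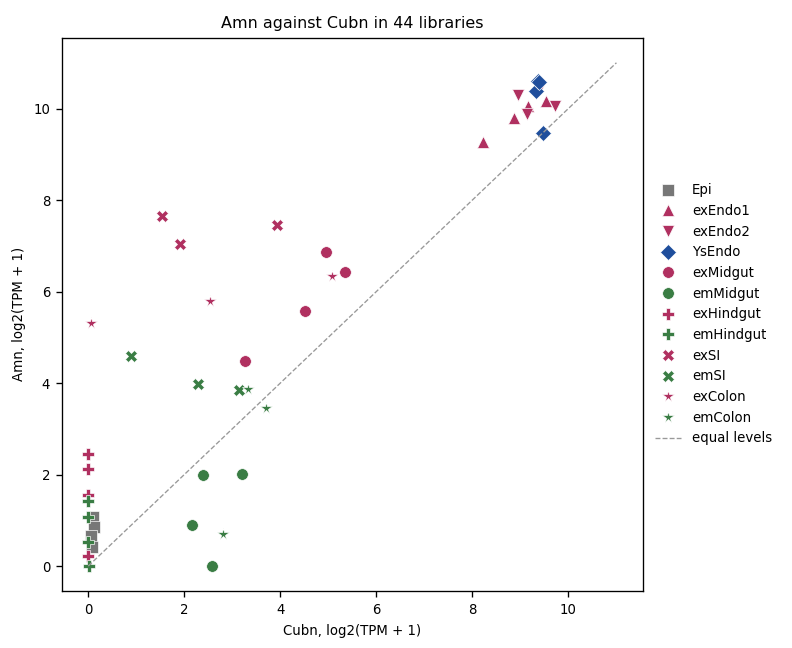
Level of Amn (vertical axis) against Cubn (horizontal axis) as log2(TPM + 1) in 44 libraries, with a dashed line of equal levels. Visceral and yolk sac endoderm libraries cluster at the top right, exSI libraries lie far above the line and emMidgut libraries below it.

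The ratio of the 2 transcripts of the cubilin complex varied by group. The median ratio of Amn to Cubn TPM was 1.88 in exEndo1, 1.85 in exEndo2, 2.18 in YsEndo and 2.33 in exMidgut. In emMidgut it was 0.307, with all 4 libraries from 0 to 0.707 and below every exMidgut library (2.12 to 3.88). At E13.5 the ratio was 12.2 to 105 in exSI and 1.71 to 26.9 in emSI, which overlapped, and 2.45 to 1136 in exColon and 0.103 to 1.5 in emColon, which did not. Several of these ratios rest on values near 0 and are imprecise. The 1136 had Cubn at 0.0339 TPM (exColon replicate 2) and the 0.103 had Amn at 0.616 TPM (emColon replicate 3). In emMidgut Amn was at 0 to 3.01 TPM. The ratio of chaperone to megalin also shifted. Lrpap1 to Lrp2 was 1.45 to 2.16 in exEndo2, 4.54 to 5.83 in YsEndo and 58.6 to 81.8 in exMidgut. In exMidgut Lrpap1 stood at 60.6% of its YsEndo mean and Lrp2 at 4.64%, or 2.67 to 4.36 TPM. Embryonic gut cells also had high ratios, with 24.2 to 53.4 in emMidgut, 70.7 to 503 in emSI and 39.9 to 149 in emColon. In emHindgut the ratio was 6.13 to 12.7.

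Ranked over the 12 groups by mean TPM, exEndo1, exEndo2 and YsEndo held the highest 3 places for every gene. YsEndo led for Amn, Cubn, Lrpap1 and Folr1, exEndo2 for Lrp2, and exEndo1 for Dab2 and Clcn5. The next place was taken by exMidgut for Cubn, Lrpap1 and Dab2, exSI for Amn, emColon for Folr1, exMidgut for Clcn5 and Epi for Lrp2. Ranges of the top 3 overlapped for Amn, Cubn and Clcn5, whereas exEndo2 stood clear of the rest for Lrp2 and YsEndo clear of both E6.5 regions for Dab2, on the lower side. In the gut, Lrpap1 had the highest floor, at 31.9 TPM in exHindgut, and the lowest Folr1 value was 9.18 TPM in emHindgut.

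Across the 12 group means of log2(TPM + 1), which share no library, Pearson's r between pairs of the 7 genes ran from 0.18 for Lrp2 with Folr1 to 0.91 for Cubn with Dab2, and was 0.90 for Amn with Cubn. Among 14689 protein-coding genes the closest patterns to Cubn were those of Atp6v0e, a proton pump subunit (r = 0.97), Dhrs11 and the lysosomal protease gene Ctsl (both 0.97). For Amn they were Pla2g12b, Hook2 and Slc39a5 (r = 0.96 to 0.97), for Lrp2 Zyg11a, Fnip2 and Phactr1, for Lrpap1 F2, Pdpn and Abcd3, for Dab2 Sgk3, Prkaa2 and Rab11fip5, for Folr1 Gipc2, Vamp8 and Ttr, and for Clcn5 Gna13, Rpn1 and Optn. These correlations describe 12 points that include 3 very high groups.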

How the data were processed

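RNA was measured by poly(A) sequencing of 44 low-input mouse libraries. Per the submitters' processing notes, reads were trimmed with cutadapt 4.1, aligned with STAR 2.7.9a to mm10 with the GFP and mCherry sequences added, and quantified with StringTie 2.0.6. The authors deposited TPM, FPKM and coverage, a signal of mean read depth per gene. Read counts per gene were not used here, so a limma fit replaced the count test the study applied, depth is known only through coverage, and precision rests on the spread between libraries. TPM was summed per gene identifier, and 32235 of 32287 identifiers matched GENCODE vM21, which gave gene type and exon length.

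The genes tested were protein-coding, not on the Y chromosome, and exceeded 1 TPM in no fewer than 4 libraries (3 where E13.5 groups took part). They were fitted as log2(TPM + 1) with limma 3.58.1 in R 4.3.3 (empirical Bayes with a trend, two-sided, Benjamini-Hochberg adjustment within each of 20 comparisons and 3 interactions). Fold changes on this scale understate changes of low genes. A gene was called at adjusted p < 0.05 when its log2 fold change was also beyond 1 in size (interactions on the adjusted p alone). The fit was tested on simulated data. Genes under the filter had an exact permutation test. Other values came from Python 3.11.15 with NumPy 2.4.6, pandas 2.3.3 and SciPy 1.17.1. The genes and lists were chosen with earlier results of these data known. In each comparison the 7 genes are named, together with the 2 called genes of a list with the largest rise and the 2 with the largest fall, and the 3 genes most alike in pattern. Some of these are given by count only.

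Groups counted as paired by replicate number when same-numbered libraries deviated together with every r above 0.1. Only exEndo1 and exEndo2 met this (4 pairs, r from 0.18 to 0.39). The fit reported for them had no pairing term, and adding a replicate block changed no call. In the 16 pairs of groups at E9.5 and E13.5, r ran from -0.02 to 0.07, and weaker pairing there was not tested. Between exSI and emSI it was 0.051 to 0.067, against -0.045 to -0.006 for unlike numbers. Between exSI and exColon it was 0.009 to 0.038, against at most 0.008. Between exColon and emColon it was 0.016 to 0.027, against at most 0.004, and between emSI and exColon 0.017 to 0.034, against at most 0.003. For emColon with exSI and with emSI, same and unlike numbers overlapped. Per the study's methods, 4 embryos contributed tissue to each midgut or hindgut replicate at E9.5, and p-values measure the spread between such libraries. Alternatives were a pseudocount of 0.1, no filter, median-ratio rescaling, FPKM values, omission of single libraries, a block for the replicate number, the gut region as a covariate, no covariate for the organ, and a single fit of all 44 libraries.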

Additional observations from a re-analysis of the deposited data

Results flagged for a closer look

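In 5 of 55 sets of 4 libraries, a single library stood far from the other 3 by Dixon's test on log2(TPM + 1), and chance alone flags about 1 set in 20. Lrpap1 reached 382 TPM in exEndo1 replicate 1, against 240 to 250 TPM in the others, and fell to 237 TPM in exEndo2 replicate 4, against 309 to 316 TPM. Dab2 was lowest in exHindgut replicate 1, at 2.65 TPM against 10.3 to 11.7 TPM. Folr1 was highest in exEndo1 replicate 2, at 685 TPM against 541 to 562 TPM. Cubn in emHindgut replicate 1 was at 0.00448 TPM where the other 3 were listed at 0.

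The change from E6.5 to E9.5 differed between the yolk sac line (exEndo2 to YsEndo) and the gut line (exEndo1 to exGut) for all 7 genes by the interaction term of the limma fit. The difference of the log2 changes was 6.20 for Amn, 6.77 for Cubn, 2.55 for Lrp2, 1.84 for Lrpap1, 5.87 for Dab2, 3.30 for Folr1 and 1.53 for Clcn5, each higher in the yolk sac line. The size for Cubn depends on the pseudocount, since it was listed at 0 in the exHindgut libraries. For Lrpap1 (adjusted p = 0.0450) the call was lost in 16 of 20 fits that left out a single library (adjusted p up to 0.0875) and without the filter on low values (0.0935). The stages also differ in dissection and sorting, which cannot be told apart from time.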

How the results depend on the processing

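The calls of the 7 genes within E6.5 and in exGut and emGut against YsEndo kept their direction and side of the threshold in every fit that held the gene, Cubn being filtered out when an endoderm library was left out at E6.5. The number of the 7 genes called changed in the cases given here, and the cause was not tested. The shares of all genes called that are given above belong to the main fits, not to these alternatives. The counts of the alternatives therefore cannot be read against a share. Between exGut and emGut it rose from 0 to 2 (Amn and Folr1) with the replicate block, the region covariate or all 44 libraries in a single fit. The E9.5 libraries did not reach the r of 0.1 taken for pairing by number, but that cut cannot exclude pairing. By the study's methods, tissue of several embryos was pooled for each gut replicate before sorting. Same-numbered libraries of both origins may therefore share a pool, which the labels do not state. The block gave a limma adjusted p of 0.00541 for Amn and 0.000553 for Folr1. It also took the region interaction from 0 to 1 (Amn, limma adjusted p = 0.0237), as did FPKM and the single fit, and it changed no other call. Without the filter on low values, counts fell from 2 to 1 in the midgut, 1 to 0 in the hindgut and 1 to 0 in the small intestine. The single fit gave 1 in place of 0 in the colon, for emSI against emColon and for the organ interaction, and 2 for exSI against exColon, where rescaling and FPKM gave 1. For emSI against emMidgut a pseudocount of 0.1, no filter, rescaling and FPKM each gave 1 in place of 3. Smaller changes were a loss of Lrpap1 without the filter for exGut against exEndo1 and for the stage interaction (7 to 6 each), a gain of 1 in the single fit for emGut against Epi (Cubn) and emColon against emHindgut (3 to 4 each), and 2 in place of 3 for emColon against emHindgut with a pseudocount of 0.1 or no filter.

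Median-ratio rescaling moved the share of calls that were higher, over all genes, from 76.3 to 54.8% for exGut and 76.6 to 56.2% for emGut against YsEndo, 26.9 to 52.6% for YsEndo against exEndo2, 75.4 to 57% for emGut against Epi, 19.4 to 39.4% for emSI against emMidgut, 20.1 to 38.4% for emColon against emHindgut and 25.1 to 50.5% for the stage interaction.

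Leaving out single libraries gave 0 to 1 called for exGut against emGut, 1 to 2 for exMidgut against emMidgut, 0 to 1 for YsEndo against exEndo2, 0 to 1 for exSI against exColon, 1 to 3 for emSI against emMidgut, 1 to 4 for emColon against emHindgut and 0 to 1 for the region interaction. The organ interaction of Cubn ran from -0.17 to 2.35 and changed sign without exColon replicate 2. Without read counts, the counting error of low values such as Cubn at E13.5 is unknown, and 3 libraries per group limit what could be detected there.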

Other observations

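Myo6, the motor of endocytic vesicles, averaged 61.2 ± 23.5 TPM in exMidgut, 8.40 ± 4.74 in exHindgut, 4.44 ± 1.69 in emHindgut and 41.1 ± 4.97 in emColon (n = 4, 4, 4 and 3). The scavenger receptor gene Scarb1, which takes up cholesterol from high-density lipoprotein, was at 149 ± 29.9 TPM in YsEndo, 57.6 ± 17 in exEndo2 and 19.8 ± 6.92 in exGut (n = 4, 4 and 8), and the neonatal Fc receptor gene Fcgrt at 114 ± 30.4, 31.1 ± 18.2 and 27.5 ± 20.5 TPM. In the opposite direction, Sort1, a sorting receptor, was at 0.746 ± 0.131 TPM in YsEndo and 15.2 ± 5.60 in exGut, and Vldlr at 0.154 ± 0.199 and 8.34 ± 5.58 TPM (limma adjusted p = 4.36e-07 and 6.69e-05). Of the 12 other endocytic receptors, 7 were called higher and 2 lower in exGut than in YsEndo, where 32.3% of all genes were called higher and 10% lower and the median log2 fold change was 1.28 for the list and 0.59 for all genes.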
